A study of Homo sapiens with 27 samples.

Results

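The replication-dependent histone genes of human cells were described in 27 RNA sequencing libraries. They were chosen by name alone: protein-coding genes with a symbol from H1-1 to H1-6, or with a symbol made of H2AC, H2BC, H3C or H4C and a number. The annotation (GENCODE release 44) holds 70 such genes, and 66 of them had a row among the 60619 gene identifiers of the count tables. These were 6 H1, 15 H2A, 19 H2B, 11 H3 and 15 H4 genes; the levels of H2AC18, H2AC19, H3C2 and H3C3 were not analysed here, though these genes enter the counts of stem-loops and promoters. All samples came from REH, an established line of B-cell precursor acute lymphoblastic leukemia that carries the ETV6/RUNX1 fusion and has lost its other ETV6 allele. Cells were harvested 72 hours after medium alone (2 samples) or after an LNA GapmeR at 10 µM (25 samples), taken up without a transfection reagent. A GapmeR is an antisense oligonucleotide whose ends are locked nucleic acid and whose central DNA lets RNase H cut the paired RNA. The non-targeting GapmeR (NTC) had 3 samples and formed, with medium, the 5 controls. For each of 4 lncRNAs there were 2 GapmeRs, with 2 and 3 samples for GapmeR1 and GapmeR2 against lnc-NKX2-3-1, 3 and 3 against lnc-RTN4R-1, 3 and 3 against lnc-TIMM21-5, and 3 and 2 against lnc-ASTN1-1. The comparisons ask whether lowering a lncRNA changes the level of these histone mRNAs, and all comparisons with the controls share the same 5 control samples.

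Replication-dependent histone genes supply the core histones H2A, H2B, H3 and H4 and the linker histone H1 that package newly made DNA, so their mRNAs accumulate in S phase and are lost when DNA synthesis ends. They are the only known metazoan mRNAs that normally end in a stem-loop instead of a poly-A tail. The stem-loop is bound by SLBP, and the transcript is cut just after it by a complex that contains the U7 snRNP. Some of these genes can also yield longer, polyadenylated transcripts that run past the stem-loop. Replacement histones such as H3-3B and H2AZ1 are made throughout the cell cycle from polyadenylated mRNA.

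The stem-loops are shown because they mark where the usual transcript ends. They were searched within 120 bases after the stop codon on the hg38 genome with the letters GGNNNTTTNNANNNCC, read on the strand of the gene and required to form a stem of 6 base pairs and a loop of 4 bases. This pattern was found in 64 of the 70 genes (91.4%) and in 4 of 19854 other protein-coding genes (0.0202%), which were DLEU7, H2AX, H3-4 and H3-7. It began 23 to 68 bases after the stop codon, with a median of 36. The commonest form occurred in 40 genes of the H1, H2A, H2B and H3 classes, and 9 more had an A in the loop. In the H4 genes 1 base pair of the stem differed in all 14 genes with a match. The stem-loops of the genes that the results turn on follow, with 5 bases on either side in lower case and the stem-loop in capitals.
H2BC21 (chr1:149886188-149886203, minus strand): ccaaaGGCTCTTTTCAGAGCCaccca
H2AC6 (chr6:26124669-26124684, plus strand): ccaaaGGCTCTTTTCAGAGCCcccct
H2BC9 (chr6:26252055-26252070, plus strand): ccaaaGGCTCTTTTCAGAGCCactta
H1-2 (chr6:26055744-26055759, minus strand): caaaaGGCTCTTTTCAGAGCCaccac
H3C8 (chr6:26270923-26270938, minus strand): aaaaaGGCTCTTTTAAGAGCCgccta
H4C16 (chr12:14770724-14770739, minus strand): caaaaGGCCCTTTTCAGGGCCcccaa
H2BC21, H2AC6, H2BC9 and H1-2 share the same 16 bases. In H2BC21, whose stem-loop starts 57 bases after the stop codon, annotated exon sequence runs on for 1729 bases past it, and in H2AC6 for 1128 bases. In H2BC9 and H3C8 the annotation stops 5 bases after the stem-loop and in H1-2 after 4.

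Libraries held 14627110 to 22750945 counts assigned to genes on the counted strand. The targeted lncRNAs averaged 15.2% (lnc-NKX2-3-1), 25.3% (lnc-RTN4R-1), 15.7% (lnc-TIMM21-5) and 45.1% (lnc-ASTN1-1) of their control level in CPM (gene counts scaled to a common library size after TMM normalisation). These means pool both GapmeRs of a lncRNA, and 2 of them rest on few counts. lnc-NKX2-3-1 was at 0 to 0.183 CPM against 0.325 to 1.26 in the controls, and lnc-TIMM21-5 at 0.0452 to 0.502 against 1.08 to 2.19. Of 10 B precursor markers 9 were above 1 CPM on average, while VPREB1 was at 0 in every library. Of 10 markers of other blood cells 3 were above 1 CPM on average, and among them MPO ranged from 79.4 to 445.1 CPM. The labels describe ribodepleted total RNA, whereas the methods of the study describe poly-A purified RNA. Levels of RNAs without a poly-A tail therefore depend on which of these was done.

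The histone genes took 51249 of the 512518412 counts in all libraries. Their summed level per sample ranged from 69.3 to 130.8 CPM, with a median of 98.6. H2B genes gave most of it, with a summed median of 59.1 CPM (range 42.1 to 79.1) and 60.1% of the counts. H2A genes gave 19.4% of the counts, H1 genes 7.61%, H4 genes 6.75% and H3 genes 6.19%. By chromosome, the 53 genes on chromosome 6 held 54.0% of the counts and the 11 on chromosome 1 held 41.65%. H4C16, the one member on chromosome 12, held 4.33%, and H2BC12L on chromosome 21 was at 0.

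H2BC21 (ENSG00000184678), an H2B gene on chromosome 1, alone held 39.6% of the counts, with 39.5 CPM ± 7.62 (SD, n = 27). The 10 genes with the most counts held 80.1%. The highest member of each class by mean CPM was H2BC21 for H2B, H2AC6 for H2A (11.7 CPM ± 2.19), H1-2 for H1 (5.17 ± 1.02), H4C16 for H4 (4.30 ± 0.955) and H3C10 for H3 (1.96 ± 0.412), all SD with n = 27. The other members of the 10 were H2AC11 (4.31 CPM), H2BC5 (4.15), H2BC12 (3.35), H2BC9 (2.91), H2BC8 (2.41) and H2BC15 (2.04). H3C10 was not among the 10 and ranked next. Among the 10, H1-2 is the linker histone and H4C16 the H4 gene that lies apart from the clusters. Of all 66 genes 16 exceeded 1 CPM on average, and the median was 0.207 CPM.

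**Figure D1:**
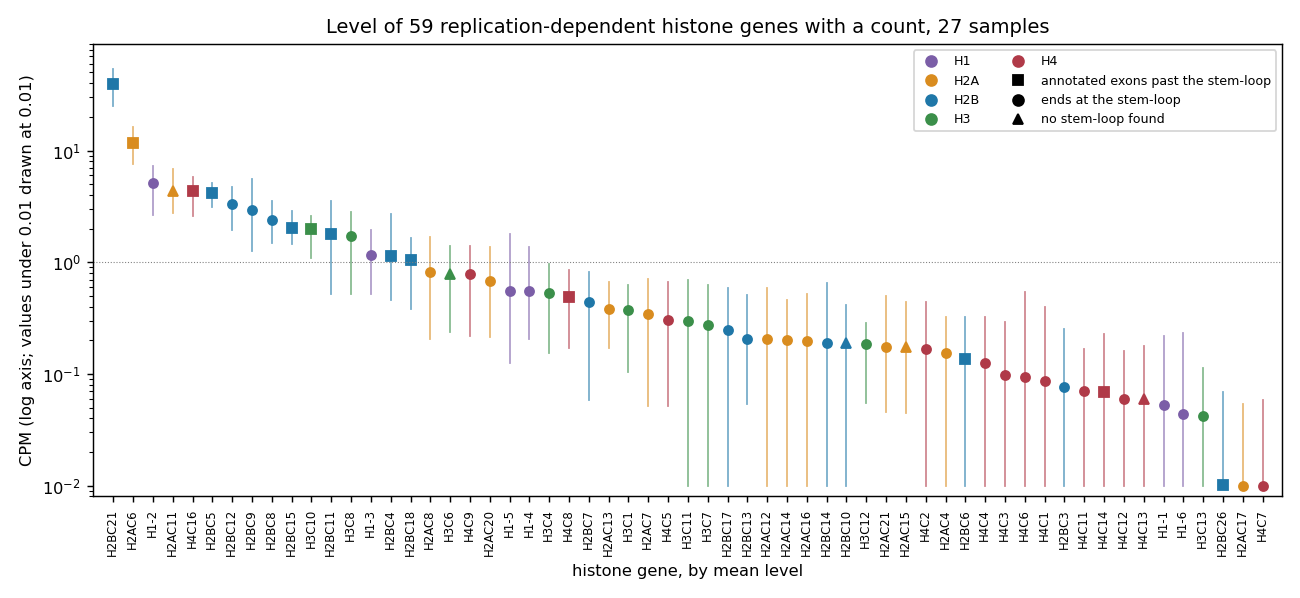
Level in CPM (log axis) of the 59 histone genes with at least 1 count, ordered by mean. Symbols are means over 27 samples and lines run from the lowest to the highest sample, colours give the class and shapes give the annotated 3′ end; H2BC21 at 39.5 CPM stands above H2AC6 at 11.7, and 43 of the genes shown lie under 1 CPM.

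The annotated 3′ end divides the genes. In 16 genes annotated exons of any transcript ran more than 100 bases past the stem-loop, and these held 68.6% of the counts. Most of this share came from 2 of them, as H2BC21 alone held 39.6% of all histone gene counts and H2AC6 11.7%. The 44 genes whose annotation ended at the stem-loop held 25.9%, and the 6 genes without a match to the pattern held 5.53%. Among the 16 genes above 1 CPM on average, 9 had exons past the stem-loop (H2BC21, H2AC6, H4C16, H2BC5, H2BC15, H3C10, H2BC11, H2BC4 and H2BC18), 6 ended at it (H1-2, H2BC12, H2BC9, H2BC8, H3C8 and H1-3), and H2AC11 had no match. The median level was 2.04 CPM for these 9 genes and 2.66 CPM for these 6, so the larger share of the 9 came from their highest genes. Per kilobase of exon the medians were 1.71 CPM for these 9 genes and 5.61 CPM for these 6. Over all 16 and 44 genes the medians per kilobase were 1.08 and 0.439 CPM, so the order depended on the genes taken. Gene counts do not show where in a gene the reads lay, so stem-loop and longer transcripts cannot be told apart.

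Near-identical copies limit some values, because reads that map to several places were not counted. Of the 66 genes 53 had at least 95% of their 75-base exon windows found nowhere else in the genome, and these held 94.1% of the counts. No window was unique in H4C14, H2BC12L, H3C14, H3C15 and H4C15, and the last 4 of these were at 0 in every library, so nothing can be said of their level. H2AC1, H2AC25 and H2BC1 were also at 0 in every library although their windows were unique. H2AC1 and H2BC1 are histone genes of the testis. A count of 0 over all libraries allows a level of up to 0.00585 CPM, for counting error only. H2BC12 (61.1% unique) and H2BC18 (26.99%) are uncertain by this measure among the genes above 1 CPM. Unique windows do not take overlap with other annotated genes into account. H2AC6 had 6007 counts on its own strand and 5070 in the unstranded counts, and H2AC15 had 89 and 0. H2AC17, with 2 counts, overlaps H3C12 on the same strand. The part of such overlaps in the levels was not tested.

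Per length the same gene led. H2BC21 had a mean of 17.8 CPM per kilobase of exon, followed by H4C16 (10.4), H2AC11 (8.74), H2AC6 (7.52) and H1-2 (7.08). Exon lengths are those of protein-coding transcripts, and H4C16 also has a longer non-coding one, so its value per length is uncertain. The median over the 66 histone genes was 0.439 CPM per kilobase, against 63.9 over 11 replacement histone genes, 84.6 over 20 S phase genes and 284 over 8 genes that every cell uses. H2AZ1, the H2A variant at promoters, had 645 CPM per kilobase, MACROH2A1 had 558 and H3-3B had 174. H2AX, which carries a stem-loop and is known to yield both kinds of transcript, had 101 CPM per kilobase. MACROH2A2, at 0.00184, was the one replacement histone gene below the histone median.

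Other RNAs that lack a poly-A tail were measured beside the histones. Of 10 such RNAs, 8 were under 1 CPM on average and 3 were at 0 in every library, among them RMRP. RN7SL1, part of the signal recognition particle, averaged 0.0130 CPM, and TERC, the telomerase RNA, averaged 0.0452. Reads that map to several places were not counted, and these RNAs were not examined for unique windows. Their low values may therefore understate their level. MALAT1 (210 to 487 CPM) and NEAT1 (178 to 545 CPM) were the exceptions; the 3′ ends of both are cut by RNase P and fold into a triple helix, and MALAT1 holds an internal run of A, while NEAT1 also has a short polyadenylated form. On the scale of CPM per kilobase MALAT1 reached 24.8 and NEAT1 17.1, near the 17.8 of H2BC21.

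**Figure D2:**
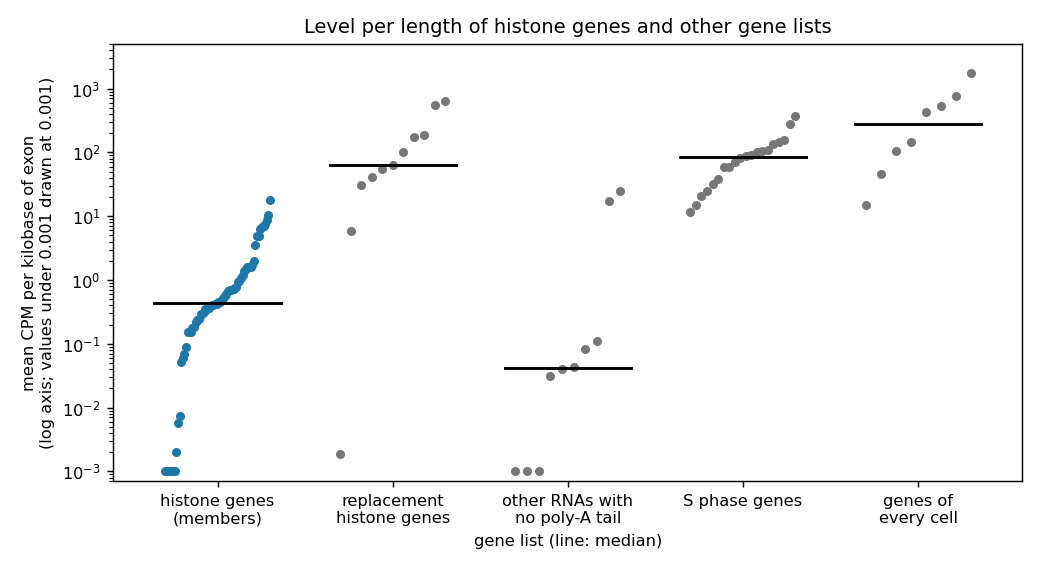
Mean level over 27 samples in CPM per kilobase of exon (log axis), 1 point per gene, for the 66 histone genes and 4 gene lists, with the median of each list as a line. The histone genes have a median of 0.439 and the replacement histone genes 63.9, and the 2 highest points among other RNAs with no poly-A tail are NEAT1 and MALAT1.

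With both GapmeRs of a lncRNA pooled against the controls, no histone gene passed the threshold in the main fit (adjusted p-value under 0.05 in edgeR, over all genes tested). The main fit used the low-count filter and no replicate block. For lnc-NKX2-3-1, 0 of 23 histone genes tested were called, where 0% of all genes were called, and none had an unadjusted p under 0.05. The GapmeRs against lnc-RTN4R-1 gave 0 called of 23 (0.476% of all genes), and 2 had an unadjusted p under 0.05. Those against lnc-TIMM21-5 gave 0 of 23 (0.00665%) with 1 at an unadjusted p under 0.05. Those against lnc-ASTN1-1 gave 0 of 20 (0.0136%) with 2. The member with the smallest p was H2BC4 for lnc-NKX2-3-1 (log2 fold change 0.66 ± 0.31 SE, adjusted p = 0.66), H2BC21 for lnc-RTN4R-1 and lnc-ASTN1-1, and H3C4 for lnc-TIMM21-5 (-0.56 ± 0.26 SE, adjusted p = 0.92). DESeq2 called H2BC21 in the lnc-RTN4R-1 comparison, where 253 of 14620 genes were called, and no histone gene in the other 3. Without the low-count filter edgeR called 1 of 57 histone genes for lnc-RTN4R-1, where 116 of 31035 genes were called, and none in the other 3. With the replicate number as a block, 0 histone genes were called for lnc-NKX2-3-1 and 0 for lnc-TIMM21-5, where 0.0135% and 1.32% of all genes were, and H2BC21 was called for lnc-RTN4R-1 and for lnc-ASTN1-1 (adjusted p = 0.028 and 0.022).

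The direction of the members differed between lncRNAs. With the lnc-RTN4R-1 GapmeRs 19 of the 23 tested histone genes had a log2 fold change under 0 and their median was -0.22, while over all genes 48.1% were under 0 with a median of 0.01. With the lnc-ASTN1-1 GapmeRs 15 of 20 were under 0 (median -0.25, against 50.01% of all genes). With the lnc-TIMM21-5 GapmeRs 7 of 23 were under 0 (median 0.12, against 49.9%), and with the lnc-NKX2-3-1 GapmeRs 9 of 23 (median 0.04, against 49.7%). Pooling hid a difference for lnc-NKX2-3-1, where 15 of 26 were under 0 with GapmeR1 (median -0.04) and 9 of 25 with GapmeR2 (median 0.14). With NTC only as controls the medians were -0.08 for lnc-RTN4R-1 (14 of 23 under 0), -0.14 for lnc-ASTN1-1 (16 of 22), 0.12 for lnc-TIMM21-5 (7 of 26) and 0.17 for lnc-NKX2-3-1 (8 of 25). With the replicate block the medians were -0.18 for lnc-RTN4R-1, -0.18 for lnc-ASTN1-1, 0.15 for lnc-TIMM21-5 and 0.05 for lnc-NKX2-3-1. Without replicate 3 they were -0.20, -0.14, 0.12 and 0.02 in the same order. Histone genes are not independent of each other, so these counts are a description.

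H2BC21 had the most counts of all members. In medium it was at 44.9 and 38.2 CPM, and in NTC at 50.9, 45.0 and 38.01 CPM. With lnc-RTN4R-1 GapmeR1 it was at 38.8, 35.0 and 27.3 CPM, and with GapmeR2 at 35.6, 34.3 and 33.5 CPM. With lnc-ASTN1-1 GapmeR1 it was at 37.0, 38.5 and 29.3 CPM, and with GapmeR2 at 40.2 and 28.9 CPM. Samples of these 4 groups reached into the range of the controls only in lnc-RTN4R-1 GapmeR1 replicate 1, lnc-ASTN1-1 GapmeR1 replicate 2 and lnc-ASTN1-1 GapmeR2 replicate 1. With lnc-NKX2-3-1 GapmeR1 it was at 30.96 and 25.3 CPM, both below every control. With lnc-NKX2-3-1 GapmeR2 it was at 53.3, 44.5 and 41.8 CPM, with lnc-TIMM21-5 GapmeR1 at 51.2, 49.8 and 43.1 CPM, and with its GapmeR2 at 47.2, 45.4 and 39.1 CPM. These 3 groups lay within or above the control range. How many of all genes separate from the controls in this way was not counted. For H2BC21 replicate 3 was the lowest sample in 8 of 8 groups that held one, and of the controls only NTC had a replicate 3.

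For H2BC21 the pooled log2 fold change was -0.35 ± 0.09 (SE) with the lnc-RTN4R-1 GapmeRs (adjusted p = 0.14, edgeR) and -0.32 ± 0.11 with the lnc-ASTN1-1 GapmeRs (adjusted p = 0.77). With the replicate number as a block the same gene was called in both, at -0.32 ± 0.07 (adjusted p = 0.028) and -0.28 ± 0.06 (adjusted p = 0.022); 1.96% and 0.881% of all genes were called in these blocked fits. Single GapmeRs gave -0.36 ± 0.12 and -0.33 ± 0.10 for lnc-RTN4R-1 GapmeR1 and GapmeR2 (adjusted p = 0.26 and 0.061), and both were called with the block. For lnc-ASTN1-1 GapmeR1 and GapmeR2 it was -0.31 ± 0.11 and -0.33 ± 0.15 (adjusted p = 0.51 and 1.0), and with the block GapmeR1 was called (adjusted p = 0.012) and GapmeR2 was not (adjusted p = 0.12). All genes were called at 9.39% and 22.4% in the blocked fits of the lnc-RTN4R-1 GapmeRs and at 4.86% and 0.215% in those of the lnc-ASTN1-1 GapmeRs.

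lnc-NKX2-3-1 GapmeR1 was the one single GapmeR with called histone genes in the main fit. DESeq2 also called H2BC21 with lnc-RTN4R-1 GapmeR2, where 1291 of 13590 genes were called. Without the low-count filter edgeR called 1 of 57 histone genes with lnc-RTN4R-1 GapmeR1 and 2 of 56 with its GapmeR2. Of all genes, 391 of 30014 and 1389 of 29641 were called there. With lnc-NKX2-3-1 GapmeR1, 2 of 26 members tested were called in the main fit (7.69%), where 17.6% of all genes were called. H2BC21 fell by 0.62 ± 0.12 (SE) on the log2 scale (adjusted p = 0.0042). H2BC9 (ENSG00000275713), an H2B gene on chromosome 6, rose by 1.06 ± 0.24 (adjusted p = 0.0094). H2BC9 was at 5.54 and 5.02 CPM with this GapmeR, against 3.44 and 2.57 in medium and 3.05, 2.20 and 1.41 in NTC. It was named because it was called here, so the lack of overlap is a description. How many of all genes separate in this way was not counted. The lowest control was NTC replicate 3, and this GapmeR had no replicate 3. Neither gene was called when replicate 1 or replicate 2 was left out, which leaves 1 sample of this GapmeR that is assumed to vary like the controls; H2BC21 was then at -0.68 and -0.52 and H2BC9 at 1.28 and 1.07. With NTC only as controls 5 of 24 members were called (20.8%), where 16.2% of all genes were. H2BC21 was lower (-0.66 ± 0.13 SE), and H2BC9 (1.26 ± 0.25), H1-4 (1.33 ± 0.41), H1-5 (1.44 ± 0.47) and H3C7 (2.34 ± 0.64) were higher. With the block 4 members were called (36.4% of all genes), with H2AC11 lower (-0.48 ± 0.17, adjusted p = 0.023) and H2AC20 higher (0.95 ± 0.38, adjusted p = 0.045) besides these 2.

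The other GapmeR against the same lncRNA differed. Between lnc-NKX2-3-1 GapmeR1 and GapmeR2, 4 of 27 members were called (14.8%), where 13% of all genes were. H2BC9 was higher with GapmeR1 (log2 fold change 1.04 ± 0.18 SE, adjusted p = 0.0047), and with GapmeR2 it was at 2.58, 2.67 and 2.47 CPM. H2BC21 was lower with GapmeR1 (-0.72 ± 0.13, adjusted p = 0.0060). H2AC6, the H2A gene with the most counts, was at 10.2 and 8.60 CPM with GapmeR1 and at 15.9, 12.6 and 16.4 CPM with GapmeR2 (-0.67 ± 0.16, adjusted p = 0.021). H2AC11 was at 3.48 and 3.26 CPM with GapmeR1 and at 6.00, 5.85 and 4.77 CPM with GapmeR2 (-0.71 ± 0.19, adjusted p = 0.033). These genes were chosen as called in this comparison, so the separation of their samples is a description. With the block 7 members were called, where 41.8% of all genes were. H1-2 joined as lower, and H1-4 and H1-5 as higher with GapmeR1. Only GapmeR2 has a replicate 3, so this blocked contrast rested on replicates 1 and 2, and its fit left 1 residual degree of freedom. Without replicate 1 only H2BC21 was called, and without replicate 2 only H2BC21 and H2BC9.

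**Figure D3:**
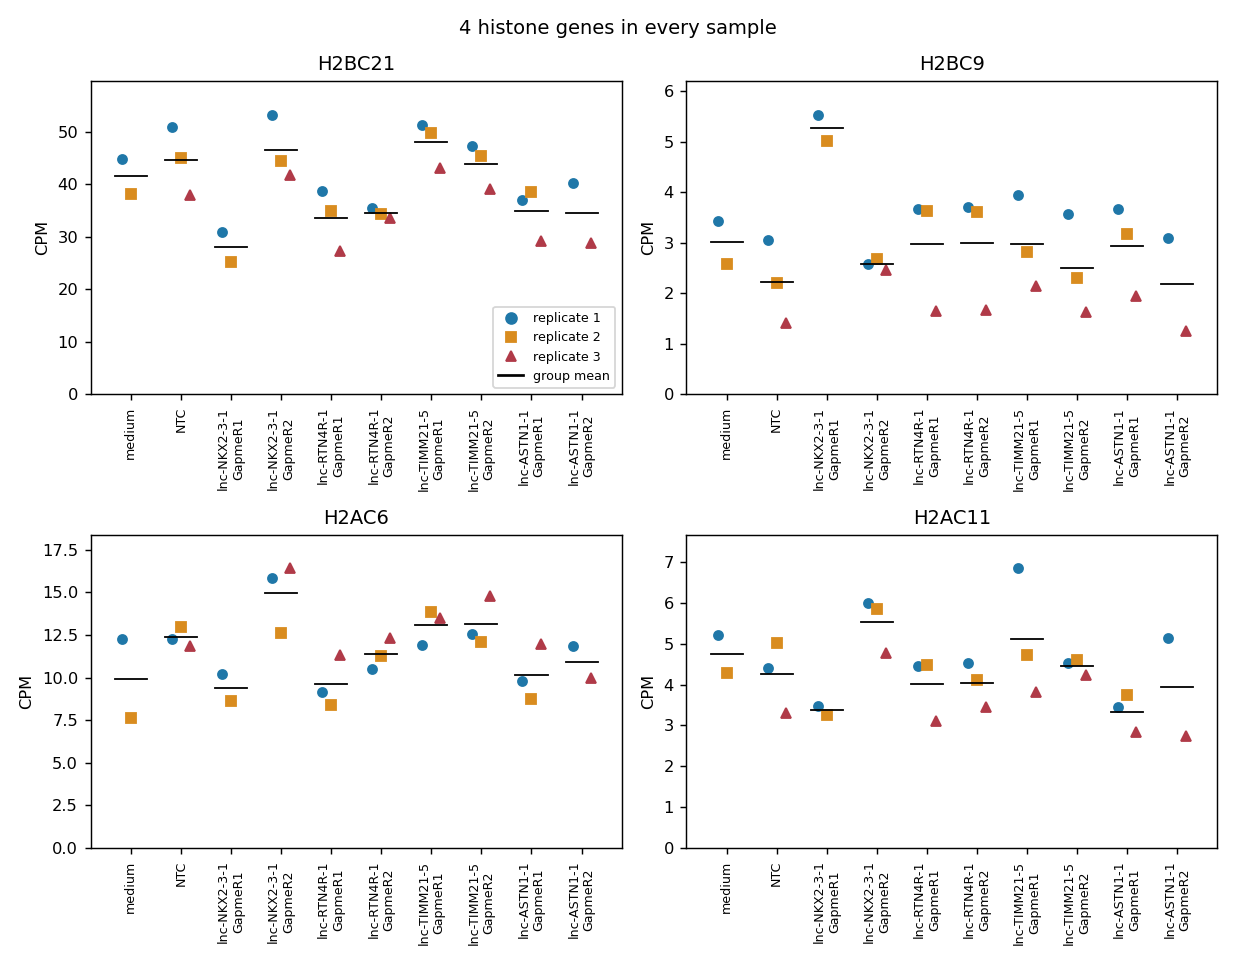
Level in CPM of H2BC21, H2BC9, H2AC6 and H2AC11 in each of the 27 samples by group, with symbols for the replicate number and a line for the group mean. With lnc-NKX2-3-1 GapmeR1 H2BC9 lies at 5.02 and 5.54 CPM and H2BC21 at 25.3 and 30.96 CPM, and replicate 3 is the lowest sample for H2BC21, H2BC9 and H2AC11 in each of the 8 groups that have one.

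The promoters of the 2 H2B genes that moved apart are shown with their shared motifs. RefSeq promoters of 300 bases, from 250 before to 50 after the start, were matched for 64 members. Motifs were searched on both strands as ATTTGCAT (the octamer bound by POU2F1), CCAAT and TATAAA, and are printed in capitals.
H2BC21 (GRCh38.p14, chr1:149886633-149886932, minus strand): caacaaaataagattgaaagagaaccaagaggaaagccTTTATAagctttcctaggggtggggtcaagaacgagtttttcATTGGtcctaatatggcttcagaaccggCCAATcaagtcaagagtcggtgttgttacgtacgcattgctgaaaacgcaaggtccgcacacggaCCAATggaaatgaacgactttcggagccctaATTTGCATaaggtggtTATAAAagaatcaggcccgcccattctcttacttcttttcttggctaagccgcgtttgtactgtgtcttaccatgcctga
H2BC9 (GRCh38.p14, chr6:26251364-26251663, plus strand): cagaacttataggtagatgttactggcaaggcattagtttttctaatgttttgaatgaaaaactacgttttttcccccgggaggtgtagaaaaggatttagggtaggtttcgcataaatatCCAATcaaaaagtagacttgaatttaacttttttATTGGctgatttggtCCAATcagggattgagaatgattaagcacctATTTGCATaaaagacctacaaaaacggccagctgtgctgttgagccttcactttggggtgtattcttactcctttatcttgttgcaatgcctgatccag
Both held the octamer and CCAAT, and TATAAA was found in the window of H2BC21 but not of H2BC9. The octamer was found in 77.8% of 18 H2B promoters, 68.8% of 16 H2A promoters and none of the H1, H3 or H4 promoters, against 1.77% of all 35116 promoters. CCAAT was found in 84.4% of the 64 and in 34.6% of all promoters, and TATAAA in 65.6% against 11.5%. The H1 box AAACACA was found in all 6 H1 promoters and in 5.64% of all promoters. The longest run of any GapmeR that was complementary to an exon of a member was 8 to 11 bases, and for lnc-NKX2-3-1 GapmeR1 it was 9 bases, in H4C8.

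Genes around the histones were examined in the same fits. With lnc-NKX2-3-1 GapmeR1 against the controls, 12 of 20 S phase genes were higher and none lower (median log2 fold change 0.30), where 7.41% of all genes were called higher, among them SLBP, which binds the stem-loop, at 0.42 ± 0.08 (SE, adjusted p = 0.0027), CDC6, which loads the replicative helicase, at 0.37 ± 0.07 and CCNE2 at 0.50 ± 0.10. Of 10 mitosis genes 5 were higher and none lower (median 0.28), and they summed to 3161 to 3223 CPM, against 2650 to 2736 in medium and 2378 to 2716 in NTC. The tested histone genes had a median of -0.04 in this comparison. MALAT1 was also higher (0.27 ± 0.07, adjusted p = 0.023). Of 16 genes for histone mRNA transcription and processing, a list that also holds SLBP, 6 were higher and 1 lower; CASP8AP2, a factor of histone locus bodies, rose by 0.52 ± 0.09 and TENT4A fell by 0.51 ± 0.10 on the log2 scale. Of 12 histone chaperones 2 were higher (ASF1B and SUPT16H) and 1 lower (RBBP4), and of 10 tested replacement histone genes only H2AX was called (0.30 ± 0.09 SE, adjusted p = 0.033). Markers of other blood cells summed to 166 to 199 CPM in this group, 89.8 to 102 in medium and 97.0 to 140 in NTC. MPO, the myeloid enzyme, was the 1 of 3 tested markers that was called there (0.84 ± 0.14, adjusted p = 0.00145), and its part in the histone values was not tested.

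In the remaining comparisons of single GapmeRs with the controls 0 members were called in the main fit. The shares of all genes called were 0% for lnc-NKX2-3-1 GapmeR2, 1.59% and 6.62% with GapmeR1 and GapmeR2 against lnc-RTN4R-1, 0.079% and 0.0593% with those against lnc-TIMM21-5, and 0.718% and 0.013% with those against lnc-ASTN1-1. At an unadjusted p under 0.05 there were 3, 3, 4, 2, 0, 4 and 3 members in the same order. Beyond H2BC21 the members with the smallest p were H2BC18 for lnc-NKX2-3-1 GapmeR2 (0.79 ± 0.30 SE, adjusted p = 0.91), H2BC4 and H2AC8 for lnc-TIMM21-5 GapmeR1 and GapmeR2 (0.64 ± 0.29 and -0.68 ± 0.37), and H3C4 for lnc-ASTN1-1 GapmeR2 (-1.22 ± 0.44, adjusted p = 1.0). With the block 2 of these comparisons gained calls beyond H2BC21. With lnc-RTN4R-1 GapmeR2, H4C16 (-0.53 ± 0.17, adjusted p = 0.020) and H3C8 (-0.76 ± 0.25, adjusted p = 0.027) were lower, where 22.4% of all genes were called, and with lnc-NKX2-3-1 GapmeR2, H2BC11 was higher (0.74 ± 0.20, adjusted p = 0.029), where 2.72% were. The lnc-TIMM21-5 GapmeRs had 0 members called with the block, where 2.79% and 0.33% of all genes were. H4C16 was at 3.88, 2.83 and 2.59 CPM with lnc-RTN4R-1 GapmeR2, against 4.19 and 3.72 in medium and 5.15, 5.66 and 4.23 in NTC, so that replicate 1 lay within the control range. Markers of other blood cells summed to 298 to 453 CPM with lnc-RTN4R-1 GapmeR2, above the 89.8 to 140 of the controls, the highest sums of any group. MPO was the 1 of 3 tested markers called there (1.78 ± 0.17 SE, adjusted p = 9.0e-05), CD3D and HBB were at 0 in every library, and the part of this in the histone values, H2BC21 included, was not tested.

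Between the GapmeRs of the other 3 lncRNAs 0 members were called. Of all genes, 5.92% were called between the lnc-RTN4R-1 GapmeRs, 0.0784% between those of lnc-TIMM21-5 and 0.146% between those of lnc-ASTN1-1. Each comparison had 1 member at an unadjusted p under 0.05. These were H3C8 (log2 fold change 0.85 ± 0.37 SE), H4C8 (0.79 ± 0.34) and H2AC20 (1.11 ± 0.41), in the same order, all GapmeR1 against GapmeR2. With the block H3C8 was called for lnc-RTN4R-1 (0.86 ± 0.25, adjusted p = 0.010), where 30.9% of all genes were, and 0 members were called for lnc-TIMM21-5 and lnc-ASTN1-1, where 0.503% and 4.29% were. For H2BC21 the difference between the lnc-RTN4R-1 GapmeRs was -0.03 ± 0.12 and that between the lnc-ASTN1-1 GapmeRs 0.01 ± 0.17.

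NTC against medium, which checks the effect of a GapmeR as such, gave 0 called of 23 members and 0% of all genes. Of the members 4 had an unadjusted p under 0.05. H4C9, an H4 gene on chromosome 6, was at 1.18 and 1.31 CPM in medium and at 0.509, 0.251 and 0.217 CPM in NTC, a log2 fold change of -1.91 ± 0.43 (SE, adjusted p = 0.92). With the block it was called (-1.68 ± 0.47, adjusted p = 0.030), as were 1.53% of all genes. Medium has no replicate 3, so the blocked contrast rested on replicates 1 and 2, and its fit left 1 residual degree of freedom. H4C9 had 401 counts in all libraries on its own strand and 2265 on the opposite strand, so its own-strand level is uncertain.

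Histone genes also differed by replicate number. The methods of the study place the triplicates on different days, and replicate 3 was compared with replicates 1 and 2 with the 10 groups as a covariate. Of 25 members tested 14 were called and all 14 were lower in replicate 3 (56%), where 51.7% of all genes were called and 25.3% were called lower. The median log2 fold change of the members was -0.34, against 0.01 over all genes, and 20 of 25 were under 0, against 48.7% of all genes. In a bulk sample fewer cells in S phase and less histone mRNA per cell cannot be told apart. A difference between replicates in how the libraries were prepared was not tested either.

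H2BC9 in replicate 3 ranged from 1.26 to 2.47 CPM with a median of 1.66 (n = 8), and in replicates 1 and 2 from 2.20 to 5.54 with a median of 3.44 (n = 19). Replicate 3 was its lowest sample in 8 of 8 groups that held one, and its log2 fold change was -0.83 ± 0.12 (SE, adjusted p = 8.0e-07, edgeR). H3C8, an H3 gene, had a median of 1.04 CPM (0.519 to 1.40) in replicate 3 and 1.97 (1.04 to 2.79) in the others, a change of -0.89 ± 0.15 (adjusted p = 8.2e-06). H2BC11 changed by -0.85 ± 0.16 and H3C10 by -0.54 ± 0.11. For H3C10 all 8 samples of replicate 3 (1.09 to 1.75 CPM) lay below all 19 others (1.78 to 2.62 CPM). H2BC21 fell less, by 0.29 ± 0.05 on the log2 scale (adjusted p = 5.2e-06), with replicate 3 lowest in 8 of 8 groups. H2AC11 fell by 0.43 ± 0.08. The genes named here were called in this comparison, so the separation of their samples is a description. How many of all genes separate in this way was not counted.

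By class, the called members were 7 of 10 H2B genes tested, 3 of 4 H3 genes, 2 of 4 H2A genes, 1 of 4 H1 genes and 1 of 3 H4 genes. By annotated 3′ end they were 7 of 13 genes that ended at the stem-loop, 5 of 10 with exons past it, and both tested genes without a match (H2AC11 and H3C6). The median log2 fold change was -0.40 for the 13, with 12 under 0, and -0.16 for the 10, with 6 under 0. Among genes with exons past the stem-loop, H2AC6 was at 0.15 ± 0.07 (adjusted p = 0.070), H2BC15 at 0.07 ± 0.10, H2BC18 at 0.13 ± 0.19 and H2BC5 at -0.04 ± 0.07. The summed level of the genes ending at the stem-loop was 13.9 to 23.6 CPM in replicate 3, 23.4 to 36.3 in replicate 1 and 23.9 to 30.8 in replicate 2. That of the genes with exons past it was 51.7 to 75.8 CPM in replicate 3, 59.4 to 92.1 in replicate 1 and 50.04 to 84.5 in replicate 2, so these ranges overlapped. The difference between the 2 kinds of gene was not tested.

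**Figure D4:**
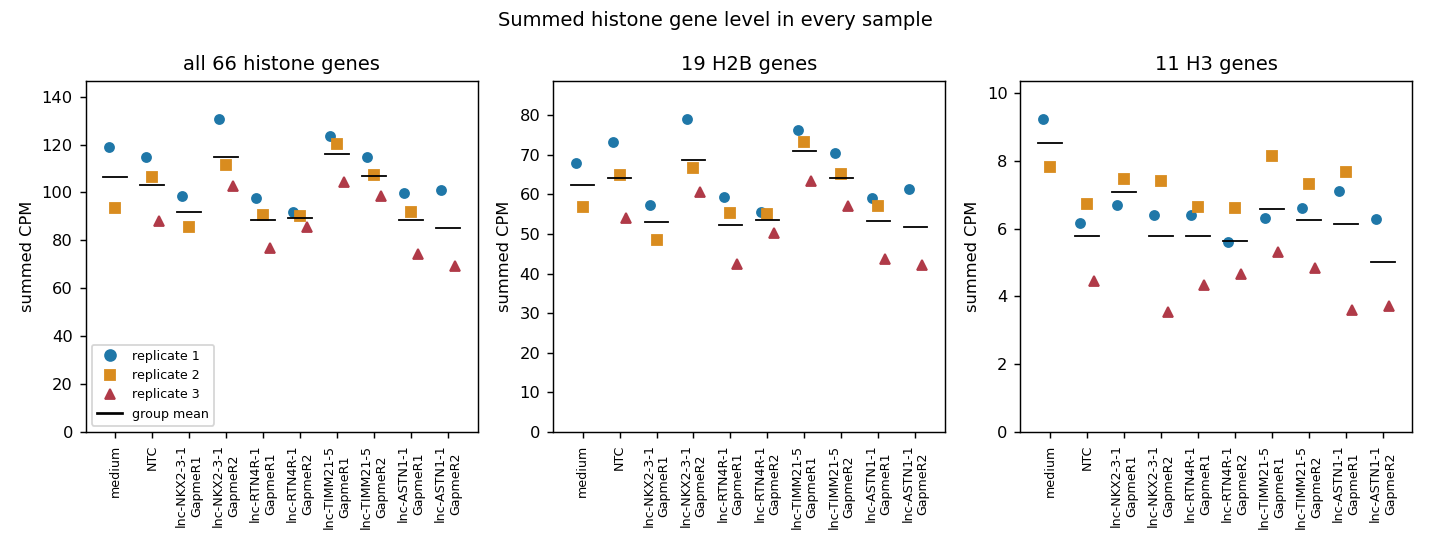
Summed level in CPM of all 66 histone genes, the 19 H2B genes and the 11 H3 genes in each of the 27 samples by group, with symbols for the replicate number and a line for the group mean. Replicate 3 is the lowest sample of each of the 8 groups that have one, in all 3 panels; of the classes not drawn, this held for H2A in 3 of the 8 groups and for H1 and H4 in 6 of 8.

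**Figure D5:**
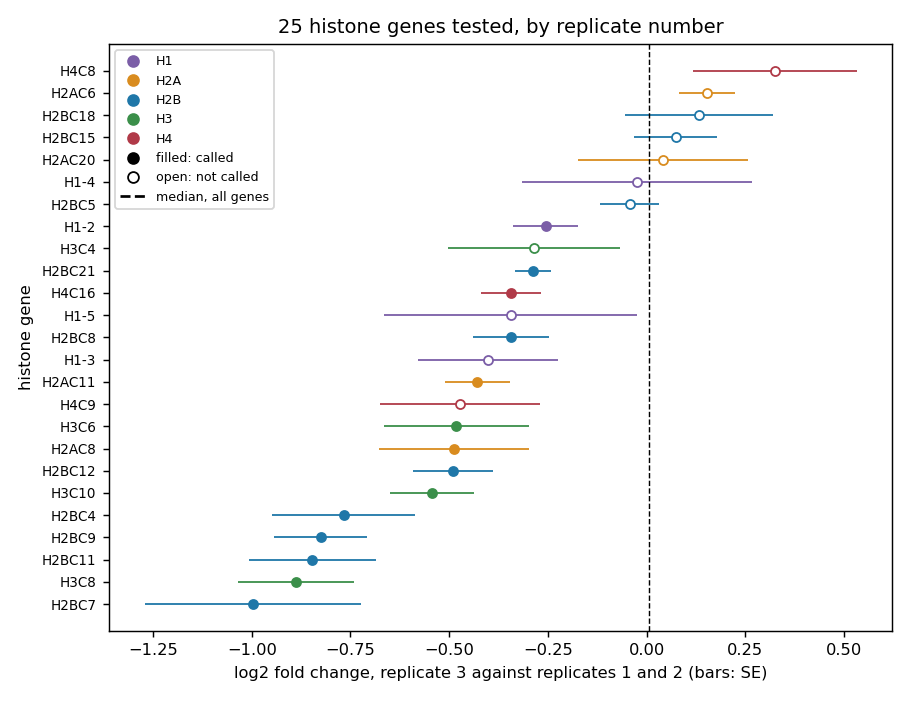
Log2 fold change of replicate 3 against replicates 1 and 2 for the 25 histone genes tested, with bars of 1 SE, colours for the class and filled points for an adjusted p-value under 0.05. All 14 filled points lie left of the dashed line, the median of all genes at 0.01.

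Other lists moved in the same comparison. All 20 S phase genes were lower (median log2 fold change -0.32), among them RRM1 (-0.40 ± 0.02 SE) and RRM2 (-0.37 ± 0.02), which make deoxynucleotides, and CDC45 (-0.39 ± 0.03), part of the replicative helicase. The S phase genes summed to 4700 to 5352 CPM in replicate 3, 5888 to 7098 in replicate 1 and 6117 to 7218 in replicate 2. Lower genes were 10 of 12 histone chaperones, 10 of 16 processing genes (SLBP at -0.22 ± 0.02), 8 of 10 mitosis genes and 6 of 10 replacement histone genes (H2AZ1 at -0.33 ± 0.03). Among the processing genes 2 were higher. Of 8 genes that every cell uses 5 were lower, with GAPDH at -0.39 ± 0.03. MALAT1 and NEAT1, at 0.06 each, were not called. All 3 tested markers of other blood cells were higher (MPO at 0.49 ± 0.04). Their list summed to 116 to 453 CPM in replicate 3 against 86.0 to 298 in the others. MPO gave most of it, with a mean of 136 CPM over all samples, against 4.37 for ITGAM and 1.16 for NKG7. Of all 15284 genes tested in this comparison 4032 were called higher and 3865 (25.3%) lower. The part of these markers in the histone values was not tested.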

How the data were processed

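Gene counts of 27 REH libraries were analysed. Per the labels and methods, the authors aligned reads to hg38 with STAR and deposited raw counts per gene of uniquely mapped reads, with no normalisation, regardless of strand and for each strand. The annotation release behind the counts and the read length were not given in the sources used here. Column 4, the strand with 95.3% of both strand columns, was used. Total counts per library were 14627110 to 22750945, and precision at low levels is limited by counting. GENCODE v44 matched 56434 of 60619 identifiers and gave symbols and GRCh38 coordinates, counted from 1.

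The main test was the robust quasi-likelihood F test of edgeR (4.0.16) in R (4.3.3), with TMM scaling; filterByExpr removed genes with few counts (a minimum count of 10 and a minimum total of 15). P-values were adjusted over all genes tested by the Benjamini-Hochberg method, and under 0.05 is called. In individual fits 20 to 27 of the 66 histone genes passed this filter. Each comparison used its own samples and no covariate, except replicate 3 against replicates 1 and 2, which used all samples with group as covariate. Standard errors were derived from F statistics. CPM used TMM library sizes over all samples.

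Replicate numbers came from the labels, and the methods place triplicates on different days. Deviations from group means (16268 genes) correlated at 0.26 on average in 109 pairs of samples with the same number, of which 94 were over 0.1, and at -0.13 in 218 pairs with different numbers. Blocked values are therefore given beside results they change. The blocked fits of NTC against medium and between the GapmeRs of lnc-NKX2-3-1 and of lnc-ASTN1-1 left only 1 residual degree of freedom. Nothing states that the numbers were assigned by day. No 2 libraries of a group agreed within sampling noise (24 pairs).

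The alternatives tried were the replicate block, each replicate left out, NTC only as controls, unstranded counts, one fit of all samples, DESeq2 (1.42.0), RLE scaling, total assigned counts as library size and testing without the filter. The fits were tested on simulated counts. Where RefSeq gave several starts for a histone gene, the promoter nearest to its stop codon was used. The histone genes, lists and named genes (the 10 highest, the highest of each class, up to 6 called per comparison or the one with the smallest p, up to 3 of each list) were chosen with earlier results of these data known.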

Additional observations from a re-analysis of the deposited data

Results flagged for a closer look

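Between the 2 GapmeRs against lnc-NKX2-3-1, 4 of 27 histone genes tested differed in the direct test (14.8%), where 13% of all genes did. For these 4 the changes against the shared controls were therefore not alike. The log2 fold change of GapmeR1 against GapmeR2 was 1.04 for H2BC9, -0.72 for H2BC21, -0.67 for H2AC6 and -0.71 for H2AC11. H2BC9 was the one higher with GapmeR1, in 2 of 2 samples. GapmeR1 had samples of replicates 1 and 2 only, and without replicate 3 the values were 1.01 for H2BC9 and -0.80 for H2BC21. No group of this series has 4 or more samples, so single samples were not examined for being far from the rest.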

How the results depend on the processing

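The counts of called histone genes that changed by more than 1.5 times are given here. With the replicate block they were 1 instead of 0 for lnc-RTN4R-1 and for lnc-ASTN1-1 pooled, for lnc-NKX2-3-1 GapmeR2, lnc-RTN4R-1 GapmeR1 and lnc-ASTN1-1 GapmeR1 against the controls, for lnc-RTN4R-1 GapmeR1 against GapmeR2 and for NTC against medium. They were 3 instead of 0 for lnc-RTN4R-1 GapmeR2, 4 instead of 2 for lnc-NKX2-3-1 GapmeR1 and 7 instead of 4 between its GapmeRs. The block changed no other call count beyond that size. Without the low-count filter they were 1 for lnc-RTN4R-1 pooled, lnc-RTN4R-1 GapmeR1 and NTC against medium, 2 for lnc-RTN4R-1 GapmeR2 and 7 between the lnc-NKX2-3-1 GapmeRs. Of all genes, 116 of 31035, 391 of 30014, 31 of 28082, 1389 of 29641 and 2773 of 28680 were then called, in the same order. DESeq2 called 1 for lnc-RTN4R-1 pooled and for its GapmeR2, where 253 of 14620 and 1291 of 13590 genes were called. With NTC only as controls lnc-NKX2-3-1 GapmeR1 had 5, of which 4 were higher. With a replicate left out the counts ranged from 0 to 3 for lnc-NKX2-3-1 GapmeR1, from 0 to 1 for lnc-RTN4R-1 GapmeR2 (H2BC21, without replicate 3), from 1 to 5 between the lnc-NKX2-3-1 GapmeRs and from 10 to 13 for replicate 3; without replicate 1, 1 of the 10 (H2AC6) was higher. Of all genes, 3618 of 15225 were called without replicate 3 for lnc-NKX2-3-1 GapmeR1 against the controls. For lnc-RTN4R-1 GapmeR2 they were 1323 of 15171, and between the lnc-NKX2-3-1 GapmeRs 2918 of 15260. In the comparison of replicate 3 they were 7302 of 14924 without replicate 1 and 7725 of 15017 without replicate 2. Unstranded counts moved the summed mean of H2A genes from 19.3 to 16.4 CPM and of H4 genes from 6.71 to 10.9. RLE normalisation and one fit of all samples changed no call count by over 1.5 times.

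The log2 fold change of H2BC21 changed sign in 4 comparisons where it was not called. With a replicate left out it ranged from -0.014 to 0.21 for NTC against medium, from -0.090 (without replicate 3; -0.062 without replicate 2) to 0.23 for lnc-ASTN1-1 GapmeR1 against GapmeR2, from -0.12 to 0.085 for lnc-RTN4R-1 GapmeR1 against GapmeR2, and from -0.045 to 0.066 for lnc-TIMM21-5 GapmeR2 against the controls. It was -0.055 with the block between the lnc-ASTN1-1 GapmeRs and -0.024 for lnc-TIMM21-5 GapmeR2 with NTC only as controls. The cause was not tested. Comparing replicate 3 with the others needs replicate 3, so no value without it exists. Of the 50 histone genes under 1 CPM on average, 4 to 11 passed the filter in individual comparisons, and changes in the others were not tested.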
